A study of Homo sapiens with 6 samples.

Results

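The tripartite motif (TRIM) family was examined in RNA-seq of COV434 cells, an established ovarian line that the study treats as a model of SCCOHT, a small cell ovarian cancer with high blood calcium that lacks the chromatin remodeling ATPase BRG1. Members were all genes whose symbol is TRIM followed by a number and at most 1 letter, which gave 71 of the 19899 genes in the table. Parental COV434 cells were transfected with a control plasmid, pCDNA3-neo (Control, n = 3), or with a BRG1 plasmid, PBJ5-BRG1 (BRG1, n = 3), and all 6 samples also received a puromycin resistance plasmid. Puromycin at 2 to 3 µg/ml was added after 24 hours and cells were collected after 3 days on it. The labels number the samples 1 to 3 in each group and call them biological replicates, all of a single parental line, so every comparison is of 3 against 3 bulk cultures, in which fewer responding cells and less RNA per cell cannot be told apart.

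Most TRIM proteins are E3 ubiquitin ligases. A RING finger at the front recruits the ubiquitin-charged enzyme, B-box and coiled-coil segments assemble the protein into dimers and higher complexes, and the C-terminal domain chooses the target. Several members are induced by interferon and restrict viruses or tune the sensors that detect viral RNA, while others silence chromatin, bind microtubules or turn over muscle proteins. Chromatin remodeling by SWI/SNF is carried out by BRG1 or by the alternative ATPase BRM, encoded by SMARCA2.

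Totals ran from 29699759 to 63613736 estimated counts per sample, with BRG1 sample 3 the shallowest. SMARCA4, which encodes BRG1, had 1439, 1675 and 1537 normalised counts (counts divided by the sample's size factor) in Control and 108655, 79075 and 78589 in BRG1 samples, plasmid transcripts included. SMARCA2 held 23.3, 22.7 and 3.61 normalised counts in Control and 30.7, 35.7 and 6.34 in BRG1 samples, and the granulosa cell marker FOXL2 held 3 counts or fewer in every sample.

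Of the 71 members, 11 were at 0 in all 6 samples. They were TRIM15, TRIM42, TRIM48, TRIM49, TRIM49B, TRIM49C, TRIM60, TRIM64, TRIM64B, TRIM64C and TRIM77, and 8 of the 11 lie on chromosome 11, which holds 19 members. A further 4 (TRIM40, TRIM50, TRIM51 and TRIM61) never rose above 3 counts. An adjusted p was obtained for 53 members, and 7 members with some counts (TRIM10, TRIM40, TRIM50, TRIM51, TRIM61, TRIM63 and TRIM72) were too low for it. Calls rest on a DESeq2 p adjusted by Benjamini-Hochberg over all genes tested, with a threshold of 0.05. At least 100 counts were present in every sample for 36 members.

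After BRG1 reexpression, 13 of the 53 tested members (24.5%) were called higher and 0 were called lower by DESeq2, against 11.0% and 1.84% of all tested genes. edgeR called 11 of 48 higher (22.9%, against 9.57% of all genes) and 0 lower. Without adjustment, 2 members lay lower at p under 0.05 with DESeq2 and 3 with edgeR. The 13 genes all had a log2 fold change of at least 1, and 11 of them were called in every fit run, namely TRIM5, TRIM14, TRIM21, TRIM22, TRIM25, TRIM29, TRIM34, TRIM38, TRIM55, TRIM56 and TRIM69. In 17 tested members (32.1%) every BRG1 sample lay above every Control sample, against 16.8% of all tested genes, and in 3 (5.66%, against 9.86%) every BRG1 sample lay below. The labels do not state that samples of the same number belong together, and this pairing was inferred from the data. With the number as a block, DESeq2 called 15 of 52 members higher (28.8%, against 13.4% of all genes) and 3 lower (5.77%, against 6.62%), and edgeR called the same genes among 48 tested (against 13.7% and 5.68% of all genes). When each sample was left out in turn, DESeq2 called 11 to 15 members higher, the 15 being without BRG1 replicate 3. The median log2 fold change with DESeq2 was 0.12 over the 53 members, and it was -0.01 over all genes tested. With edgeR it was -0.01 over the 48 members tested and -0.04 over all genes tested, so the family median depended on the fit.

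**Figure D1:**
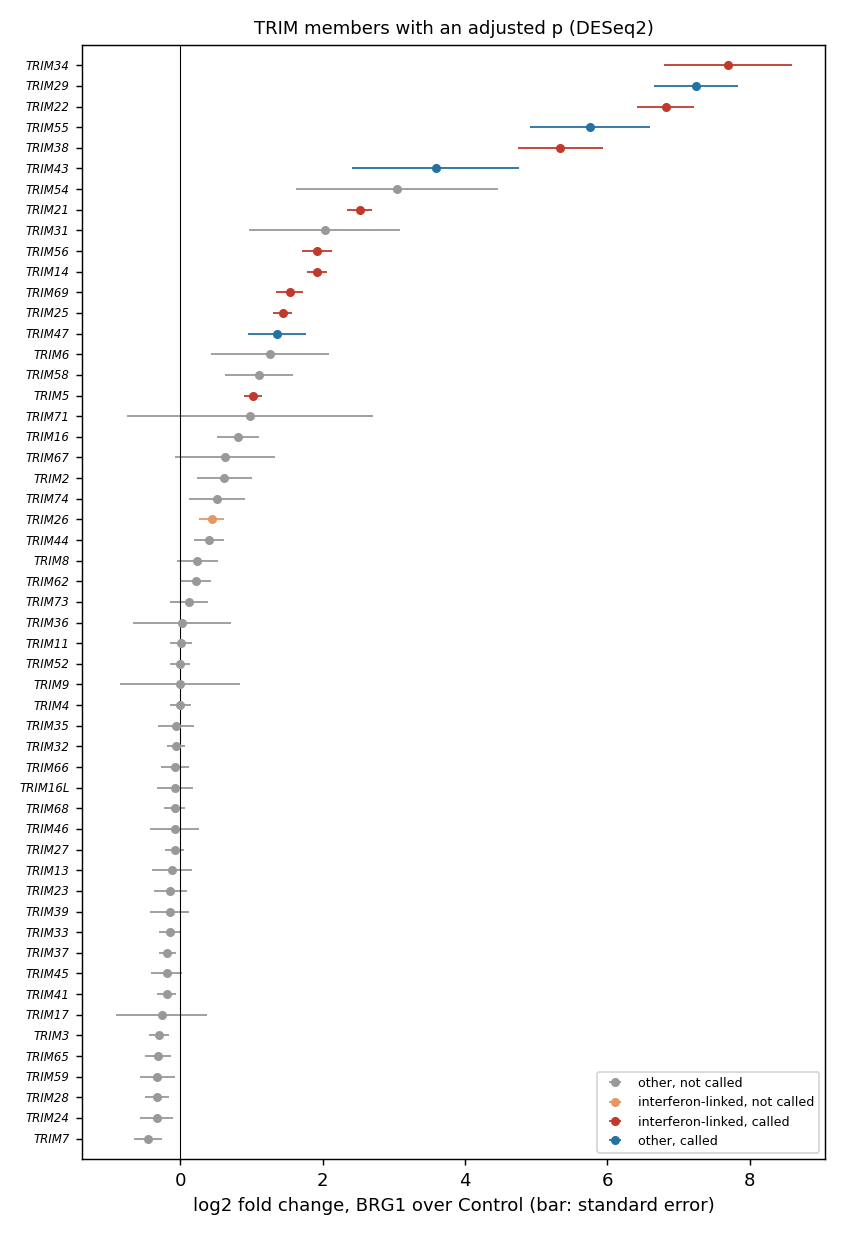
Log2 fold change of BRG1 over Control for the 53 TRIM genes with an adjusted p, with its standard error from DESeq2 (horizontal bars). Interferon-linked members are in red (called) and orange (not called), other members in blue (called) and gray (not called), and the uncalled members with at least 100 normalised counts on average lie between -0.45 and 0.81.

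The calls fell mostly on members listed as interferon-induced or antiviral. This list was chosen with earlier results of these data known and need not hold every such member. The counts on it and outside it therefore depend on that choice. Of the 10 listed members (TRIM5, TRIM14, TRIM21, TRIM22, TRIM25, TRIM26, TRIM34, TRIM38, TRIM56 and TRIM69), 9 were called higher with DESeq2 as with edgeR. The remaining listed member, TRIM26, was called with the replicate block. Their median log2 fold change was 1.92. Of the 43 other tested members, 4 were called higher (9.30%), which is near the background share of 11.0%, and their median log2 fold change was 0.00. Summed over the 10 genes, normalised counts ran from 16576 to 16844 in Control and from 47445 to 50108 in BRG1 samples, 2.91 times as high on average. The 61 remaining members together held 67640 to 75192 in Control and 65040 to 70766 in BRG1 samples, and these ranges overlap. The interferon-linked genes thus made up 18.1% to 19.9% of the family's counts in Control and 40.1% to 43.5% in BRG1 samples.

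**Figure D2:**
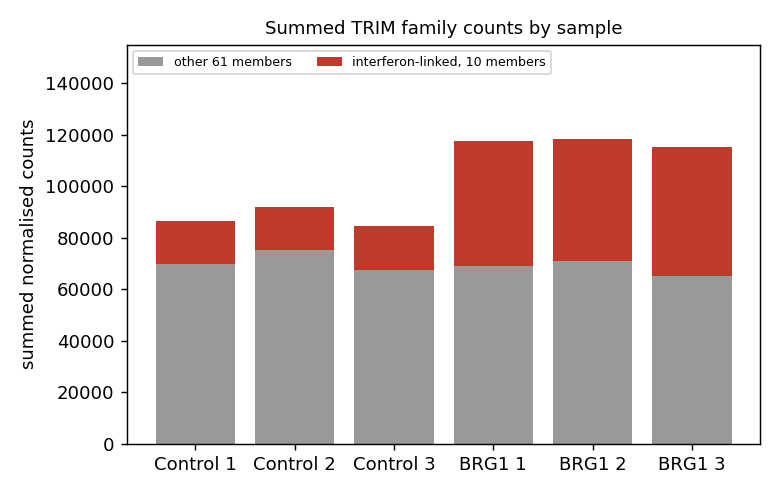
Summed normalised counts (axis from 0) of the 71 TRIM genes in each sample, split into the 10 interferon-linked members (red) and the other 61 (gray). The ranges of the gray part overlap between groups, whereas the red part is higher in every BRG1 sample.

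Promoters of these genes were read from RefSeq (GRCh38.p14, 250 bases before to 50 after each start), where 56 of 71 members had an entry and TRIM22, TRIM29, TRIM43 and TRIM55 were among those without. The interferon-stimulated response element (ISRE), a DNA element found before many interferon-induced genes, was searched on both strands by its core letters, GAAA and GAAA with any 2 bases between them. The core was in 3.57% of all promoter entries and in 10 of 75 entries of members (13.3%). Counted by gene, it was in 4.38% of all genes with an entry and in 10 of the 56 members (17.9%). It was in 6 of the 9 interferon-linked members with an entry. Among the 9 members called higher with an entry, which are not the same genes, 5 held it (55.6%). It was also in 4 of the 30 tested, uncalled members with an entry, and TRIM26 is in this count and in the interferon-linked one. Those 4 were TRIM2, TRIM16, TRIM26 and TRIM44, and all but TRIM2 were called higher by both tools with the replicate block. The stretches that hold it are shown for the 6 interferon-linked members, of which all but TRIM26 were called higher. They read 5′ to 3′ along the gene, with the core in capitals, which on the other strand reads TTTC and TTTC with 2 bases between.
TRIM5, chr11:5685075-5685151, minus strand: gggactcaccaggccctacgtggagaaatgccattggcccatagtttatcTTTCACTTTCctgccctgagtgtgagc
TRIM14, chr9:98119223-98119298, minus strand: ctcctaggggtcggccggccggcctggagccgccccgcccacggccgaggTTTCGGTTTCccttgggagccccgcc
TRIM21, chr11:4393663-4393692, minus strand: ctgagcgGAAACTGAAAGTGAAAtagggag
TRIM26, chr6:30213560-30213625, minus strand: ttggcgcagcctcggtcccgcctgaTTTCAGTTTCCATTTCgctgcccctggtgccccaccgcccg
TRIM34, chr11:5624886-5624945, plus strand: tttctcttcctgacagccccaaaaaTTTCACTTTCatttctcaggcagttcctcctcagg
TRIM69, chr15:44736441-44736500, plus strand: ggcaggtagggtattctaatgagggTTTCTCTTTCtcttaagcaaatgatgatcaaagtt
In TRIM21 and TRIM26 a pair of overlapping cores shares letters. The core began 27 bases before the start in TRIM5, 26 before it in TRIM14, 62 before it in TRIM69 and 90 before it in 1 of the 2 entries of TRIM34, and at base 18 after the start in TRIM21. The core letters were not in the windows of TRIM25, TRIM38 and TRIM56. Because the study ties BRG1 to AP-1, its site TGANTCA was searched too and was in 1 of the 9 members called higher that had an entry (TRIM5), against 11 of all 56 members (19.6%) and 9.37% of all genes. The gamma-activated site (GAS), TTCNNNGAA, was in 0 of these 9, against 12 of all 56 members (21.4%) and 9.38% of all genes. A match is a description of letters and not a shown site of binding.

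Among the antiviral restriction factors, TRIM22 rose from near silence by 113-fold and TRIM5 from a high base by 2.03-fold. TRIM22 (chromosome 11, 5689610 to 5737089, plus strand, GRCh38), which restricts HIV transcription, held 21.8, 19.3 and 28.0 normalised counts in Control and 3889, 2549.7 and 1422 in BRG1 samples. The groups did not overlap, and BRG1 sample 3 held the least of the BRG1 samples. The log2 fold change was 6.82 ± 0.40 (SE; DESeq2 adjusted p 3.5e-64, edgeR adjusted p 0.000110). Its neighbor TRIM5 (chromosome 11, 5663195 to 5938619, minus strand), the factor that binds the capsid of incoming retroviruses, was already expressed, at 1681, 1460.2 and 1586 in Control, and rose to 2997, 3216 and 3365. Its log2 fold change was 1.02 ± 0.13 (SE; DESeq2 adjusted p 7.3e-13). TRIM34 (chromosome 11, 5619764 to 5644398, plus strand), which works with TRIM5 against lentiviral capsids, was at 0, 3.19 and 0 in Control and at 171, 196 and 266 in BRG1 samples. Control was at the floor of 3 counts per library, so its rise was at least 67.0-fold (DESeq2 adjusted p 6.1e-16, edgeR adjusted p 0.000718). Exons of the readthrough gene TRIM6-TRIM34 cover 83.6% of the exonic bases of TRIM34, so the division of reads is uncertain, although that gene was listed at 0 in all 6 samples.

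These genes sit in a stretch of chromosome 11 from 4384897 to 6474459 that holds 7 members and was chosen after their values were seen. In order they are TRIM21, TRIM68, TRIM6, TRIM34, TRIM5, TRIM22 and TRIM3, and 4 of them (TRIM21, TRIM34, TRIM5 and TRIM22) were called higher, against 24.5% of tested members and 11.0% of all genes. Since the stretch was drawn around called genes, nothing is read from that count. TRIM6, next to TRIM34, held 8.77, 4.24 and 7.27 normalised counts in Control and 6.52, 25.4 and 17.3 in BRG1 samples, with overlapping groups (log2 fold change 1.26, DESeq2 adjusted p 0.437). TRIM68 and TRIM3 had log2 fold changes of -0.08 and -0.30 and were not called. By start position the called TRIM34, TRIM5 and TRIM22 followed one another in this order and TRIM21 lay apart from them. The annotated span of TRIM5 encloses TRIM22 on the other strand, although their exons do not overlap. Nothing is read from the order either.

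TRIM21, TRIM25, TRIM56, TRIM14 and TRIM38 act on or beside the sensors of viral nucleic acids and antibodies. TRIM21 (chromosome 11, 4384897 to 4393702), the cytosolic receptor for antibody-coated viruses, rose from 711, 752 and 649 normalised counts to 3464, 4090.2 and 4523. The log2 fold change was 2.52 ± 0.17 (SE; DESeq2 adjusted p 6.1e-50). TRIM25 (chromosome 17, 56836387 to 56914080), which attaches ubiquitin chains in the RIG-I pathway and can join ISG15 to proteins, rose as well. It held 6273, 5854 and 6511 in Control and 17993, 15558 and 17195 in BRG1 samples, a log2 fold change of 1.44 ± 0.13 (SE; DESeq2 adjusted p 7.2e-28). TRIM56 (chromosome 7, 101085481 to 101097967), linked to STING and to RNA virus restriction, rose from 429, 433 and 594 to 1558, 2069 and 1913 normalised counts. Its log2 fold change was 1.92 ± 0.21 (SE; DESeq2 adjusted p 4.1e-18). None of these 3 genes had overlapping groups.

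TRIM14 (chromosome 9, 98069275 to 98119222), a member without a RING finger that acts as an adaptor at MAVS, showed the same log2 fold change as TRIM56, 1.92, ± 0.14 (SE; DESeq2 adjusted p 5.7e-38). It held 2750.4, 2545 and 2977 normalised counts in Control and 9557, 10199 and 11536 in BRG1 samples. TRIM38 (chromosome 6, 25962802 to 25991231), a regulator of innate and TNF signaling, was close to the floor in Control, at 3.64, 3.52 and 8.35, and stood at 329, 219 and 107 in BRG1 samples. Its log2 fold change was 5.34 ± 0.60 (SE; DESeq2 adjusted p 2.7e-17, edgeR adjusted p 0.000906), and 5.93 without Control replicate 3. TRIM69 (chromosome 15, 44728988 to 44767829), known to restrict vesicular stomatitis virus, rose from 1337, 1744 and 1662 to 4055, 4317 and 5451, a log2 fold change of 1.54 ± 0.19 (SE; DESeq2 adjusted p 2.3e-14).

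TRIM26 (chromosome 6, 30184455 to 30213427), a ligase of the MHC region that acts on IRF3, was the interferon-linked member with the smallest difference. It held 3638, 3761 and 2763 normalised counts in Control and 4458, 5033 and 4329 in BRG1 samples, so the groups did not overlap. The log2 fold change was 0.44, with a 95% interval of 0.10 to 0.79, and it missed the threshold (DESeq2 adjusted p 0.0804, edgeR adjusted p 0.130). With the replicate block it was called by DESeq2 (adjusted p 0.000844) and by edgeR (adjusted p 0.0227).

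**Figure D3:**
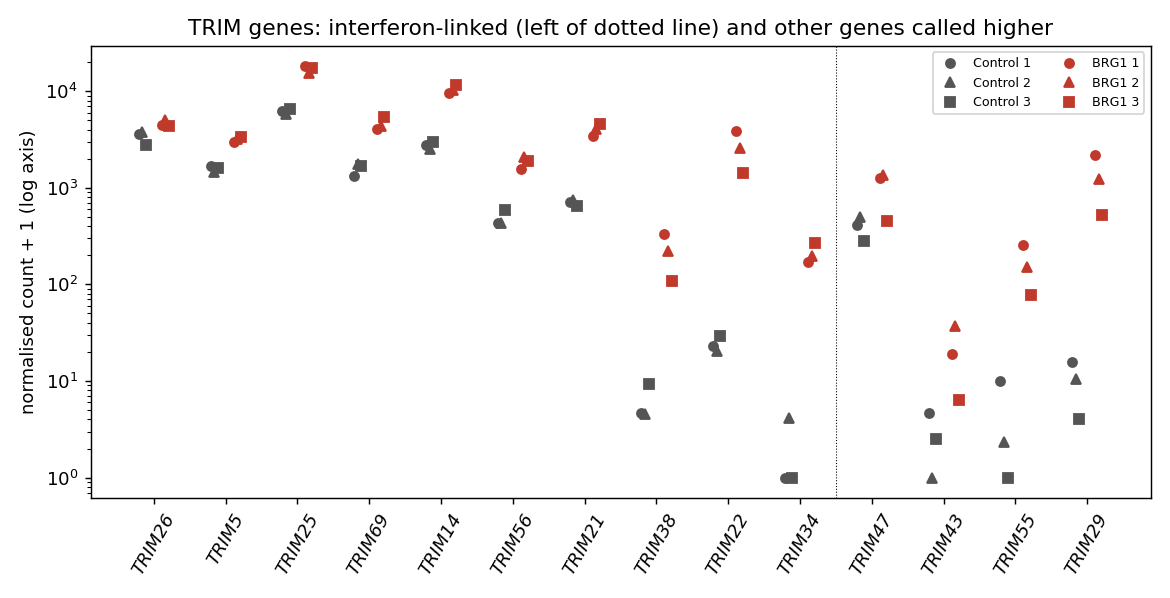
Normalised counts plus 1 (log axis) of the 10 interferon-linked TRIM genes, left of the dotted line, and of the 4 other TRIM genes called higher, in each Control (gray) and BRG1 (red) sample. Circles, triangles and squares stand for replicate numbers 1, 2 and 3, and only TRIM47 has overlapping groups.

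Relative to exon length the order of the family shifted. TRIM28 stood first in both groups, with 4897 normalised counts per kilobase of exon in Control and 3886 in BRG1 samples. TRIM21 moved from place 12 (364 per kilobase) to place 2 (2081 per kilobase), TRIM14 from place 7 (503 per kilobase) to place 3 (1903 per kilobase) and TRIM25 from place 8 (500.3 per kilobase) to place 4 (1362 per kilobase). TRIM26 was at place 2 in Control (774 per kilobase) and place 5 in BRG1 samples (1052 per kilobase). TRIM22, in spite of its large fold change, reached 209 per kilobase. Lengths were all annotated exonic bases, which need not be the transcripts used by these cells.

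Interferon response genes outside the family moved with these members. Of 18 such genes, among them ISG15, IFIT1, MX1 and OAS1, 18 were called higher, with a median log2 fold change of 6.54, and their summed normalised counts were 26579 to 30469 in Control and 284727 to 309861 in BRG1 samples. None of the 18 was at 0 throughout. Among immune cell markers, CD3E stayed at 3 counts or fewer in every sample. PTPRC was expressed in both groups, at 336, 509 and 669.5 normalised counts in Control and 360, 477 and 722 in BRG1 samples. It was 0.04 higher on the log2 scale and not called. Summed over 6 immune markers, normalised counts ran from 1856 to 2866 in Control and from 2431 to 3931 in BRG1 samples. Of the 6, LYZ was the 1 called higher. CD68, a macrophage and lysosome marker that made up most of this sum, held 2522, 1508 and 1179 normalised counts in Control and 3553, 1929 and 2790.1 in BRG1 samples. It was not called without the block (DESeq2 adjusted p 0.217) and was called higher with it (DESeq2 adjusted p 0.00132, edgeR adjusted p 0.0343). The part of these genes in the TRIM results was not tested.

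Outside the interferon-linked group, TRIM29 and TRIM55 changed strongly. TRIM29 (chromosome 11, 120111286 to 120185529, minus strand), a member without a RING finger that is typical of stratified epithelium, held 14.7, 9.54 and 3.06 normalised counts in Control and 2166, 1220 and 525 in BRG1 samples. The groups were far apart and BRG1 sample 3 was the lowest of its group. The log2 fold change was 7.24 ± 0.59 (SE; DESeq2 adjusted p 6.5e-33, edgeR adjusted p 0.000580). Of 6 epithelial markers, KRT5, KRT8 and KRT18 were called higher with it, whereas EPCAM and KRT19 stayed at 3 counts or fewer in every sample and CDH1 was not called. KRT5 held 5.27, 7.87 and 10.1 normalised counts in Control and 1707, 779 and 257 in BRG1 samples. The summed level of the 6 markers was 40.4 to 115 in Control and 752 to 3350 in BRG1 samples, and its part in the TRIM29 result was not tested.

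TRIM55 (chromosome 8, 66126896 to 66175485, plus strand), a ligase of the sarcomere in muscle, held 8.93, 1.36 and 0 normalised counts in Control and 252, 149 and 77.2 in BRG1 samples. Its log2 fold change was 5.76 ± 0.84 (SE; DESeq2 adjusted p 2.9e-10, edgeR adjusted p 0.00594). Without Control replicate 1, the highest of its group, the remaining Control samples were at the floor and the fitted log2 fold change was 8.41, which depends on the fit at such counts, and without Control replicate 3 it was 5.06. Of its close relatives, TRIM54 was not called and TRIM63 was too low to be tested. TRIM54 held 0, 0 and 2.87 normalised counts in Control and 9.92, 6.29 and 12.3 in BRG1 samples (DESeq2 adjusted p 0.177). Across the 8 members with a COS box, which binds microtubules or the sarcomere, 1 of the 6 tested was called higher (16.7%, which is near the 11.0% of all genes) and 0 lower.

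TRIM47 (chromosome 17, 75874164 to 75878581, minus strand), a ligase studied in tumors and blood vessels, held 415, 498 and 277 normalised counts in Control and 1255, 1351 and 449.6 in BRG1 samples. BRG1 sample 3 lay within the range of Control. The log2 fold change was 1.36 ± 0.41 (SE), called by DESeq2 (adjusted p 0.00854) and not by edgeR (adjusted p 0.0923), while with the replicate block edgeR gave an adjusted p of 0.00294. The DESeq2 call was lost without Control replicate 3, BRG1 replicate 1 or BRG1 replicate 2, with adjusted p-values up to 0.150. An antisense gene covers 51.6% of its exonic bases, and without strand their reads cannot be told apart. TRIM65, its neighbor on chromosome 17, had a log2 fold change of -0.31.

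TRIM43 (chromosome 2, 95592001 to 95599778), a copy-rich gene of the early embryo, was the weakest call. It held 3.64, 0 and 1.52 normalised counts in Control, which is at the floor, and 18.1, 36.2 and 5.40 in BRG1 samples, at least 6.33-fold higher (DESeq2 adjusted p 0.0203). The call was lost with the replicate block (DESeq2 adjusted p 0.0594) and in 4 of the 6 fits that left out a sample, where adjusted p-values reached 0.417, and edgeR had too few counts to test it. Its near-identical copies make the value uncertain. Of the 10 recently duplicated members in the table, TRIM43 was the 1 with an adjusted p.

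None of the 4 chromatin members passed the test without the block. TRIM28 (KAP1, chromosome 19, 58544064 to 58550722), the corepressor of KRAB zinc finger proteins, held 17746, 24389.6 and 21129 normalised counts in Control and 15215, 18015 and 16972 in BRG1 samples, with overlapping groups. The log2 fold change was -0.33, with a 95% interval of -0.67 to 0.00 (DESeq2 adjusted p 0.247). TRIM24 (chromosome 7, 138460259 to 138589996), a reader of histone marks and nuclear receptor cofactor, also had -0.33 (DESeq2 adjusted p 0.463), and TRIM33 (chromosome 1, 114392790 to 114511203), which works with SMAD proteins, had -0.15 (DESeq2 adjusted p 0.705). TRIM66 (chromosome 11, 8612037 to 8682694), the germ cell relative, had -0.07 (DESeq2 adjusted p 0.933). DESeq2 and edgeR called 0 of the 4, with 0 and 1 past an unadjusted p of 0.05. With the replicate block DESeq2 called TRIM28 (adjusted p 0.00358) and TRIM24 (adjusted p 0.0322) lower, and edgeR did so too (adjusted p 0.0290 and 0.0466). Within each replicate number BRG1 lay below Control, by log2 ratios of -0.22, -0.44 and -0.32 for TRIM28 and of -0.49, -0.31 and -0.19 for TRIM24. Such agreement is common, since 27.4% of all tested genes lay below Control in all 3 numbers.

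The block moved 3 other members past the threshold, and these were named after their values were seen. TRIM65, with a log2 fold change of -0.31 in the unpaired fit, was called lower (DESeq2 adjusted p 0.0181 with the block, 0.340 without). TRIM44, a deubiquitinase-like member without a RING finger, held 5000.5, 3634 and 5040 normalised counts in Control and 6953, 4934 and 6336 in BRG1 samples, and was called higher (DESeq2 adjusted p 0.000176 with the block, 0.237 without). TRIM16, which is expressed in keratinocytes, held 1082, 799 and 1101 normalised counts in Control and 2547, 1413 and 1259 in BRG1 samples and was called with the block (DESeq2 adjusted p 0.00193, against 0.0544 without it). TRIM16 shares sequence with TRIM16L, which had a log2 fold change of -0.07. Among the 5 members listed as lacking the RING finger (TRIM14, TRIM16, TRIM29, TRIM44 and TRIM66), 2 were called higher without the block (40.0%, against 11.0% of all genes). With the block 4 of them were called higher (against 13.4% of all genes). TRIM16L was not on this list, which need not be complete.

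**Figure D4:**
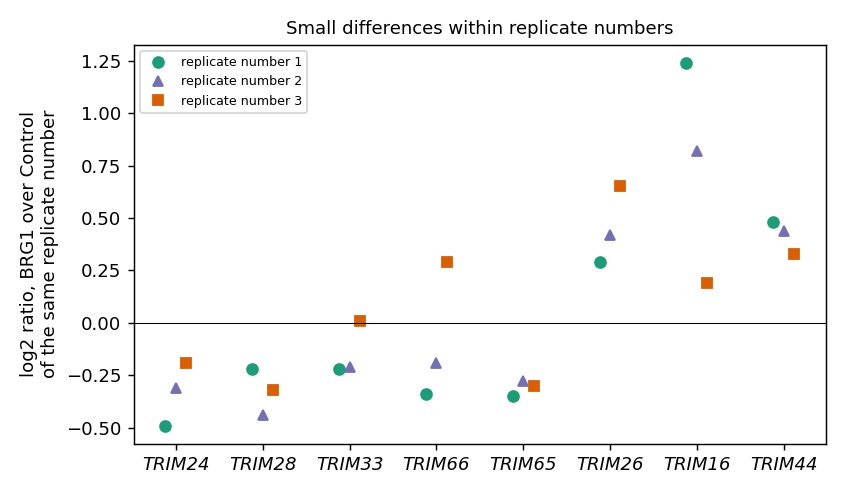
Log2 ratio of normalised counts, BRG1 over the Control sample of the same replicate number, for the 4 chromatin members and for TRIM65, TRIM26, TRIM16 and TRIM44. Symbols stand for replicate numbers 1, 2 and 3. All 3 ratios are below 0 for TRIM24, TRIM28 and TRIM65 and above 0 for TRIM26, TRIM16 and TRIM44. Of all tested genes, 27.4% lay below Control in all 3 numbers and 27.4% lay above it.

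Members were also grouped by their last domain. Of 24 tested members listed as ending in a PRY-SPRY domain, the fold that binds capsids and antibodies, 9 were called higher and 0 lower. That is 37.5%, against 11.0% of all genes, and all of the 9 but TRIM47 were on the interferon-linked list. Members that also have a COS box or a fibronectin type III domain were left off this list, and so was TRIM16L. The recently duplicated members, among them the called TRIM43, were not on it either. The called TRIM14 was put on it later. The share is thus not that of all members with this domain. With the replicate block 11 of 24 were called higher (45.8%, against 13.4%) and 1, TRIM65, lower. Among the 4 members with NHL repeats (TRIM2, TRIM3, TRIM32 and TRIM71) and the 2 with a membrane segment (TRIM13 and TRIM59), 0 were called in either direction by DESeq2 and by edgeR, and at an unadjusted p under 0.05 only TRIM3 was lower in each fit. The 30 uncalled members with a mean of at least 100 normalised counts had a median log2 fold change of -0.08, and 10 of them lay above 0. TRIM31, of the MHC region, had no overlap between groups, at 2.61, 0.804 and 3.11 normalised counts in Control and 11.4, 6.13 and 10.7 in BRG1 samples, and was not called (DESeq2 adjusted p 0.259).

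The 13 genes called higher differed in how the BRG1 samples ranked. In all, 68.3% of the 1764 genes called higher had their highest value in BRG1 sample 1 and their lowest in BRG1 sample 3, and 4.25% had the opposite ranking. Among the TRIM genes, 4 of 13 (TRIM22, TRIM29, TRIM38 and TRIM55) ranked as most genes did, and all 4 were nearly silent in Control. The opposite ranking was found in 5 of 13 (TRIM5, TRIM14, TRIM21, TRIM34 and TRIM69), of which TRIM34 was at the floor in Control. Of the 7 called members with a Control mean of 100 or more, 0 followed the common ranking, against 70.5% of 705 called genes at that level. Over all genes called higher the share was similar at lower levels, 66.8% with a Control mean under 100. The highest BRG1 sample exceeded the lowest by 1.12 times in TRIM5, 1.21 times in TRIM14 and 1.16 times in TRIM25, but by 2.74 times in TRIM22, 3.07 times in TRIM38, 3.27 times in TRIM55 and 4.13 times in TRIM29. It was 3.01 times in TRIM47, which was well expressed in Control, and 6.71 times in TRIM43, the widest spread of the 13. The interferon response genes outside the family were split, with 10 of 18 in the common ranking and 1 in the opposite ranking, and with TMM size factors the counts of TRIM genes were the same, 4 and 5. These rankings were noticed in the data, rest on 3 samples and were not tested.

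Family members under other symbols, and the enzymes and partners of TRIM ligases, were then compared. PML (TRIM19), the scaffold of nuclear bodies, rose from 2346, 2137 and 2421 normalised counts to 7741, 7529 and 5894, a log2 fold change of 1.62 ± 0.16 (SE; DESeq2 adjusted p 5.5e-21). It was the 1 gene called of the 4 tested under other symbols. MID1 (TRIM18), which binds microtubules, was abundant and differed by -0.05 on the log2 scale (DESeq2 adjusted p 0.928). Of 11 conjugating enzymes, 2 were called higher and 0 lower (18.2%, against 11.0% of all genes). UBE2L6, which carries ISG15 and serves TRIM25 in that reaction, rose from 1097, 968 and 969.7 to 7637, 6346 and 5518 normalised counts, or 2.68 on the log2 scale (DESeq2 adjusted p 1.4e-50). UBE2E1 differed by 0.36 on the log2 scale (DESeq2 adjusted p 0.0154), a call that was lost under edgeR (adjusted p 0.0977). The widely used UBE2D and UBE2N enzymes were not called.

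In the RIG-I pathway, on which several TRIM ligases act, 4 of 11 tested genes were called higher (36.4%, against 11.0% of all genes) and 0 lower. The sensor DDX58, which encodes RIG-I, rose from 595, 509 and 413 normalised counts to 7331, 9441 and 7231, or 3.99 on the log2 scale (DESeq2 adjusted p 3.9e-82). IFIH1, which encodes the related sensor MDA5, differed by 2.22 on the log2 scale (DESeq2 adjusted p 5.5e-26). MAVS, TBK1 and IRF3, which lie downstream of the sensors, had log2 fold changes of 0.14, 0.06 and -0.06 and were not called. IRF7 was near the floor in both groups, at 1.12, 6.17 and 2.68 normalised counts in Control and 8.18, 1.09 and 3.33 in BRG1 samples. Its log2 fold change was 0.25 and it was not called (DESeq2 adjusted p 0.962). IKBKE, a kinase related to TBK1, was called higher from very low counts, at 0, 0 and 1.85 normalised counts in Control, which is at the floor, and 19.1, 7.78 and 22.5 in BRG1 samples. It was at least 5.22-fold higher (DESeq2 adjusted p 0.0108), the call was lost without BRG1 replicate 1 or BRG1 replicate 3, and edgeR had too few counts to test it. Among 7 partners of TRIM28 in silencing, 0 were called in either direction (1 was lower at an unadjusted p under 0.05 with DESeq2 and with edgeR), and with the replicate block CBX5, which encodes HP1 alpha, was called lower (DESeq2 adjusted p 5.4e-07).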

How the data were processed

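Poly(A) RNA libraries without strand were made from 500 ng of RNA of 3 Control and 3 BRG1 cultures and sequenced as pairs of 78 bases. Per the submitters' processing notes and the study's methods, reads were aligned with STAR (2.5.3a, hg38, GENCODE release 24) and quantified with salmon (0.8.2). The authors summed these to genes with tximport, and their deposited table holds estimated counts (TPM rescaled by transcript length and library size). Reads that fit several copies are shared out by salmon's model.

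Estimated counts were rounded. Of 19899 genes, 18096 had a count and 15991 received an adjusted p. The main test, taken from the study's methods, was the Wald test of DESeq2 (1.42.0, R 4.3.3), BRG1 against Control without a covariate. Alternatives were the quasi-likelihood test of edgeR (4.0.16), the replicate number as a block, TMM size factors, a filter of 10 counts in 3 samples, an adjusted p under 0.01 and each sample left out. The fits were tested on simulated data, in which false calls by DESeq2, with the block and without it, exceeded what the threshold allows. Those of edgeR lay near the threshold, with the block somewhat above it in some draws. A call that only DESeq2 makes, or a block call near the threshold, is therefore less certain. Deviations of same-numbered samples from their group means correlated at 0.340, 0.301 and 0.464 over 14225 genes. Those of samples with different numbers correlated at -0.354 to 0.0618. The pairing by number was inferred from these values and is not given by the labels. Coordinates and exon lengths are from GENCODE release 44 (GRCh38), which is not the release used for counting. Groups with 3 counts or fewer in every sample count as at the floor, and folds against them used 3 counts per library. Counting error is small for genes with 100 or more counts and large for those with a few.

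Members and gene lists were chosen with earlier results of these data known. TRIM14 was moved to the PRY-SPRY list afterwards, since it has that domain. Members named were all called genes, the interferon-linked and chromatin lists, the 5 highest per kilobase, and members without overlap between groups and a log2 fold change of at least 1 (TRIM31, TRIM54). Outside the family, the rule named SMARCA4, called genes under other symbols and the 2 called genes with the lowest p in each partner list. TRIM3, TRIM6, TRIM16, TRIM16L, TRIM44, TRIM65 and TRIM68 were added after values were seen. So were UBE2D and UBE2N enzymes, MAVS, TBK1, IRF3, IRF7, IKBKE, MID1, CD68 and CBX5.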

Additional observations from a re-analysis of the deposited data

How the results depend on the processing

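TRIM members called higher (13) and the interferon-linked count stayed within 1.5 times under all 12 alternatives. Of the 20 members named by the rule, 13 kept both their call and their direction in every alternative that gave a value. TRIM members called lower (0) were 3 with the replicate block under DESeq2 and 3 under edgeR, and ran from 0 to 1 when a sample was left out (TRIM7, without BRG1 replicate 3). All genes called lower (294) were 146 with edgeR, 1035 and 809 with the block under DESeq2 and edgeR, 130 at an adjusted p under 0.01, and 117 to 596 with a sample left out. All genes called higher stayed within 1.5 times. Conjugating enzymes called higher (2) were 1 with edgeR, 1 at an adjusted p under 0.01 and 1 to 2 with a sample left out, as UBE2E1 lost its call. Partners of TRIM28 called lower (0) were 1 with the block under each tool and 0 to 1 with a sample left out (CBX5). TRIM66, not called, turned from -0.07 to 0.04 without BRG1 replicate 1 and to 0.01 without BRG1 replicate 2, and was -0.25 without BRG1 replicate 3. TRIM54 was called without Control replicate 3 (adjusted p 0.0464). The cause of these shifts was not tested. Besides those given with the results, the block changed no call of a named member. Low counts limit TRIM31, TRIM43 and TRIM54.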
